A study of Homo sapiens with 36 samples.

Results

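The genes described here are 9 transcripts of the cellular oxygen sensor: the prolyl hydroxylase genes EGLN1, EGLN2 and EGLN3, the transmembrane prolyl hydroxylase P4HTM, the asparaginyl hydroxylase HIF1AN, the ubiquitin ligase subunit VHL, the hypoxia-inducible factor (HIF) alpha subunits HIF1A and EPAS1, and their partner ARNT. They were chosen by symbol, as 9 of the 20633 gene symbols in the deposited count tables. All 9 had rows in both MDA-MB-231 tables and 8 in both 293T tables. P4HTM was not analysed here in 293T.

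RNA-seq was run on human 293T cells, a line derived from embryonic kidney, and on MDA-MB-231 cells, a line derived from a breast cancer, both grown in DMEM with 10% serum and 1% penicillin-streptomycin. The series as a whole maps EglN2 (encoded by EGLN2) and KDM5A, a demethylase of histone H3 lysine 4. The RNA libraries were made from cells given reagents against either mRNA and from their controls. Effects of a reagent beyond its target were not tested. In each line, siEglN2-1 and siEglN2-2 (labelled as siRNAs 1 and 2 against EGLN2) were set against siControl. Likewise shKDM5A-1 and shKDM5A-2 (labelled as shRNAs 1 and 2 against KDM5A) were set against shControl. Each of the 12 groups had 3 libraries. The siRNA and shRNA sequences, the time after transfection or infection, the oxygen tension and whether replicates came from separate cultures are not given in the sources used here, so p-values measure the spread between libraries, which may be technical.

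In cells with enough oxygen, EGLN1, EGLN2 and EGLN3 hydroxylate prolines of HIF1A and EPAS1, and the VHL ubiquitin ligase binds the hydroxylated proteins and marks them for destruction. HIF1AN (FIH) hydroxylates an asparagine and so blocks binding of the p300 coactivator. When oxygen falls, the alpha subunits persist, pair with ARNT and switch on genes of glycolysis, angiogenesis and pH control, EGLN1 and EGLN3 among them, which closes a feedback loop. Much of this control acts on protein, and the libraries measure mRNA only.

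The promoters of the hydroxylase and alpha subunit genes are shown because EGLN1 and EGLN3 are known HIF targets and both moved in the knockdowns. Each is the 250 bases before a RefSeq transcription start on GRCh38.p14, 5′ to 3′ on the gene's strand. They lie at chr1:231422288-231422537 (EGLN1, minus strand), chr19:40798941-40799190 (EGLN2, plus), chr14:33951075-33951324 (EGLN3, minus), chr14:61695263-61695512 (HIF1A, plus) and chr2:46297157-46297406 (EPAS1, plus). Capitals mark the HIF core motifs ACGTG and GCGTG, searched on both strands.
EGLN1: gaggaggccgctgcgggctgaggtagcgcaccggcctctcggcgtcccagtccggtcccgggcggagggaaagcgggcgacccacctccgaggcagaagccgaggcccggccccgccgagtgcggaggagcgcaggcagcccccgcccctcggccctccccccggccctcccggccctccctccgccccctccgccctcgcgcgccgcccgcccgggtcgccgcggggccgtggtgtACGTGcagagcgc
EGLN2: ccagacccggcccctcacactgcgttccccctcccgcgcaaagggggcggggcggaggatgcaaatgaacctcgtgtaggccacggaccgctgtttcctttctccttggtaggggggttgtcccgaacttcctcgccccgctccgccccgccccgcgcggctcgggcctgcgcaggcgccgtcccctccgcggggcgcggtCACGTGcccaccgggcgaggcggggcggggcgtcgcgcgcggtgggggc
EGLN3: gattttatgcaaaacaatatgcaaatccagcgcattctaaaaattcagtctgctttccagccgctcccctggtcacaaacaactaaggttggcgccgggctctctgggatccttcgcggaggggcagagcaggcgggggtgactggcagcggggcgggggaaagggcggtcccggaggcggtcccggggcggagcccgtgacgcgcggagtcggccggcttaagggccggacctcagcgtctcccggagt
HIF1A: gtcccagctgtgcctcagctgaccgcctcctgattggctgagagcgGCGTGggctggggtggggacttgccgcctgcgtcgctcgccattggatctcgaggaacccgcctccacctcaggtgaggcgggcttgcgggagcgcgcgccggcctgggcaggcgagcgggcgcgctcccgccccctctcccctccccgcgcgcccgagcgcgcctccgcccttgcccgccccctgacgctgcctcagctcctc
EPAS1: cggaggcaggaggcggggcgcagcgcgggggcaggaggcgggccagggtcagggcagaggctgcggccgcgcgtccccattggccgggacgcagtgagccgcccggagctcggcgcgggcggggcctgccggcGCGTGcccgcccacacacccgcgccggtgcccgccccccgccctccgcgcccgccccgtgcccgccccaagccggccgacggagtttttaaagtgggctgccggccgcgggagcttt
ACGTG stood once in the EGLN1 window, beginning 13 bases before the start. In the EGLN2 window ACGTG matched on each strand, 49 and 48 bases before the start, as overlapping parts of a palindrome. GCGTG stood once in HIF1A, 204 bases before the start, and once in EPAS1, 117 bases before it. Neither motif was found in the windows of EGLN3, HIF1AN, ARNT or P4HTM, nor in the windows of second starts of EGLN2 and HIF1A. Promoters of 8 of the 9 genes matched the RefSeq table by symbol. Of all 35116 promoters in that table, 18.5% held ACGTG, 32.2% GCGTG and 43.2% either, so a match is common and is given as a description only.

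In GENCODE 29 on GRCh38 the genes lie at chr1:231363751-231425044 (EGLN1), chr19:40798996-40808433 (EGLN2), chr14:33924231-34462774 (EGLN3), chr3:48989886-49007154 (P4HTM), chr10:100529072-100559998 (HIF1AN), chr3:10141008-10152220 (VHL), chr14:61695513-61748259 (HIF1A), chr2:46293667-46386703 (EPAS1) and chr1:150809705-150876768 (ARNT). Library totals were 14361214 to 27592132 counts. Values below are CPM, a gene's count as a share of its library's total in the usual sequencing unit, with TMM scaling within an experiment of 9 libraries, so levels from different experiments were scaled separately, and each knockdown reagent shares its controls with the other reagent of its target. The label of each line was checked against marker genes: CAV1 averaged 348 to 385 CPM in MDA-MB-231 controls against 13.4 to 13.5 CPM in 293T controls, and AXL 708 to 726 CPM against 0.522 to 0.714 CPM. LIN28B, NEFL, NEFM, PAX2 and IGF2BP1 had rows in the 293T tables only, while PEG10 went against its use as a 293T marker, at 183 to 232 CPM in MDA-MB-231 controls and 0.237 to 0.422 CPM in 293T controls. Of 5 epithelial markers 3 were tested in MDA-MB-231 cells, KRT18 averaging 306 to 321 CPM in controls, and of 4 markers of other cells PECAM1 reached 4.42 to 7.80 CPM there. Of the 8 MDA-MB-231 markers, 7 were lower and 1 higher with both EGLN2 siRNAs in that line, beside 20.4% and 18.3% of all genes, and 6 lower and 2 higher with both KDM5A shRNAs, beside 15.8% and 16.4%. In 293T cells 6 of these markers were tested, of which 4 were lower and 0 higher with both EGLN2 siRNAs (medians -0.47 and -0.37), beside 15.5% and 14.6%, and 2 lower and 0 higher with both KDM5A shRNAs (medians -0.52 and -0.19), beside 6.11% and 7.33%. The part of these markers in the results below was not tested. One 293T siControl library, whose column carries no replicate number, stood apart: it differed from the other 2 by 19.2 and 22.8 chi-square units per degree of freedom, against 2.02 between those 2. MDA-MB-231 siControl replicate 1 differed from the other 2 by 6.72 and 7.66 such units, against 1.57 between those 2. The fold changes of the 8 genes with the EGLN2 siRNAs in 293T cells, and their differences between lines, are given below with and without the unnumbered library.

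The siRNA target fell in every knockdown library. In 293T cells EGLN2 had 22.0, 21.9 and 22.0 CPM with siEglN2-1, and 22.1, 22.5 and 22.7 CPM with siEglN2-2, against 61.7, 60.2 and 73.7 CPM in siControl, the last being the unnumbered library. In MDA-MB-231 cells EGLN2 had 25.1, 21.4 and 21.1 CPM with siEglN2-1 and 22.2, 20.8 and 22.1 CPM with siEglN2-2, against 105, 106 and 106 CPM in siControl. All 12 knockdown libraries lay far below their controls, and the remaining level was 20.8 to 25.1 CPM in both lines although the control level differed. For EGLN2 the log2 fold change was -1.57 (SE 0.07, adjusted p = 3.03e-07) and -1.54 (SE 0.07, adjusted p = 3.7e-07) in 293T cells, and -2.24 (SE 0.05, adjusted p = 5.79e-36) and -2.29 (SE 0.04, adjusted p = 1.97e-36) in MDA-MB-231 cells. Without the unnumbered control the 293T values were -1.47 and -1.44. The MDA-MB-231 change minus the 293T change was -0.70 log2 units (SE 0.08, adjusted p = 5.86e-06), and -0.81 without the unnumbered control (adjusted p = 1.3e-13). EGLN2 overlaps the readthrough gene RAB4B-EGLN2 on the same strand (chromosome 19), which had its own row at 3.97 to 9.07 CPM in 293T siControl, so part of the EGLN2 reads may be divided between the rows. In bulk cultures fewer transcripts per cell and fewer cells carrying the transcript cannot be told apart.

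With both EGLN2 siRNAs, 6 of the 8 measured genes passed an adjusted p of 0.05 in the same direction in 293T cells (2 higher, 4 lower), where 30.1% of all 17622 tested genes did so. In MDA-MB-231 cells 8 of 9 did (4 higher, 4 lower), where 38.7% of 15109 tested genes did so. EGLN2 itself is one of the lower genes in each count. For siEglN2-1 alone the counts were 6 of 8 beside a background of 35.1% in 293T cells, and 8 of 9 beside 44.5% in MDA-MB-231 cells, and for siEglN2-2 6 of 8 beside 34.2% and 8 of 9 beside 45.4%. The median absolute log2 fold change of the genes was 0.22 and 0.23 in 293T cells beside 0.22 and 0.21 for all genes, and 0.26 and 0.32 in MDA-MB-231 cells beside 0.17 for all genes with either siRNA. Beside the target, the folds with siEglN2-1 ran from 0.607 (HIF1A) to 1.52 (EGLN3) in MDA-MB-231 cells and from 0.853 (EGLN3) to 1.24 (HIF1AN) in 293T cells. Without the unnumbered control 7 of 8 genes passed with each siRNA in 293T cells, when 7741 and 7640 of all genes passed. With that library 6190 and 6019 of all genes passed, so the calls rose among all genes too.

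**Figure D1:**
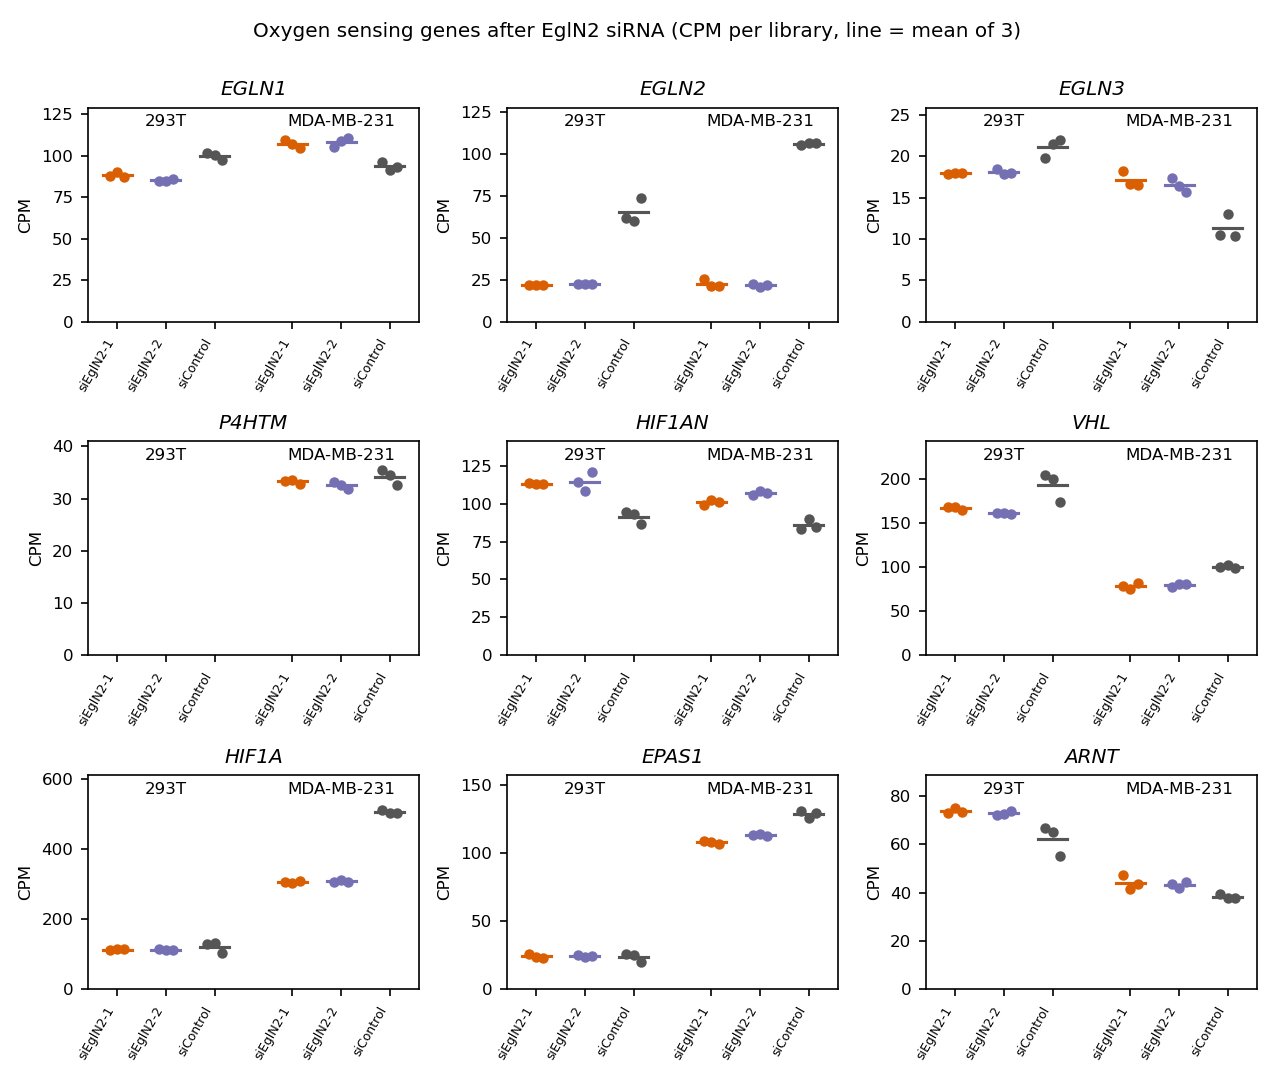
CPM of each gene in every library of the EGLN2 siRNA experiments, with siEglN2-1, siEglN2-2 and siControl from left to right within 293T and then MDA-MB-231 cells; points are libraries and lines are means of 3. EGLN2 is at 20.8 to 25.1 CPM in all knockdown libraries, EGLN3 lies below its controls in 293T and above them in MDA-MB-231 cells, and P4HTM has no 293T values.

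EGLN1 and EGLN3 moved in opposite directions in the 2 lines. EGLN1, the main oxygen sensor of most cells, had 88.1, 90.1 and 87.4 CPM with siEglN2-1 and 84.7, 85.0 and 85.7 CPM with siEglN2-2 in 293T cells, against 102, 100.3 and 97.8 CPM in siControl. In MDA-MB-231 cells EGLN1 had 109.6, 107 and 105 CPM with siEglN2-1 and 105, 109 and 111 CPM with siEglN2-2, against 96.0, 91.5 and 93.5 CPM in siControl. The groups did not overlap in either line, with knockdown libraries below controls in 293T cells and above them in MDA-MB-231 cells. The log2 fold change of EGLN1 was -0.18 and -0.23 in 293T cells (SE 0.04 each, adjusted p = 0.00502 and 0.00106), and 0.19 and 0.21 in MDA-MB-231 cells (SE 0.03 each, adjusted p = 2.29e-06 and 4.42e-07). The MDA-MB-231 effect minus the 293T effect was 0.41 (SE 0.04, adjusted p = 6.94e-07). Without the unnumbered control the 293T values of EGLN1 were -0.19 and -0.25 (adjusted p = 2.67e-05 and 8.53e-07) and the difference between lines 0.42 (adjusted p = 9.39e-12).

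EGLN3, a strongly hypoxia-inducible EGLN gene, showed the same split with a larger size. In 293T cells it had 17.9, 18.04 and 17.99 CPM with siEglN2-1 and 18.4, 17.9 and 18.02 CPM with siEglN2-2, against 19.8, 21.5 and 21.9 CPM in siControl. In MDA-MB-231 cells it had 18.3, 16.7 and 16.5 CPM with siEglN2-1 and 17.4, 16.4 and 15.6 CPM with siEglN2-2, against 10.5, 13 and 10.3 CPM in siControl. Knockdown libraries and controls did not overlap in either line. The fitted log2 change was -0.23 and -0.22 in 293T cells (SE 0.06 each, adjusted p = 0.00948 and 0.012) and 0.60 and 0.55 in MDA-MB-231 cells (SE 0.09 each, adjusted p = 1.49e-07 and 1.02e-06), a difference between lines of 0.81 (SE 0.09, adjusted p = 3.74e-06). With the unnumbered control left out, EGLN3 was at -0.20 with each siRNA in 293T cells (adjusted p = 0.0102 and 0.0134) and differed between lines by 0.77 (adjusted p = 1.98e-08). EGLN3 overlaps the antisense gene EGLN3-AS1 and, on its own strand, the protein-coding gene SPTSSA and the processed pseudogene AL356806.1. HIF1A overlaps HIF1A-AS1 and HIF1A-AS2 on the opposite strand and AL137129.1 on its own strand. Whether the counting used strand is not given in the sources used here, so reads of these overlapping genes may be mixed.

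Transcript abundance of the hydroxylase family can be compared between genes only per length. The length used was that of all annotated exons of a gene joined, 7.1 kb for EGLN1, 3.02 kb for EGLN2 and 4.87 kb for EGLN3. Lengths of the transcripts expressed were not measured, and shares and ranks between genes depend on them. Divided by the exon length, the 3 EGLN genes together had 23.4 ± 0.177 and 23.1 ± 0.123 CPM per kb with siEglN2-1 and siEglN2-2 in 293T cells, against 40.0 ± 2.31 CPM per kb in siControl (SD, n = 3 each). In MDA-MB-231 cells the sum was 26.1 ± 1.24 and 25.8 ± 0.292 CPM per kb with the siRNAs, against 50.5 ± 0.12 CPM per kb in siControl (SD, n = 3 each). The added EGLN1 and EGLN3 transcript in MDA-MB-231 cells was thus far smaller than the EGLN2 transcript that was lost. EGLN2 made up 31.0% and 32.1% of the EGLN sum with the siRNAs in 293T cells against 53.8% in siControl, and 28.5% and 27.8% in MDA-MB-231 cells against 69.3% in siControl. EGLN1 was then the most abundant of the 3 in both lines, at 53.2% and 51.9% of the sum with the siRNAs against 35.3% in siControl for 293T cells, and 58.0% and 59.1% against 26.1% for MDA-MB-231 cells. EGLN3 was the lowest of the 3 in every group.

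**Figure D2:**
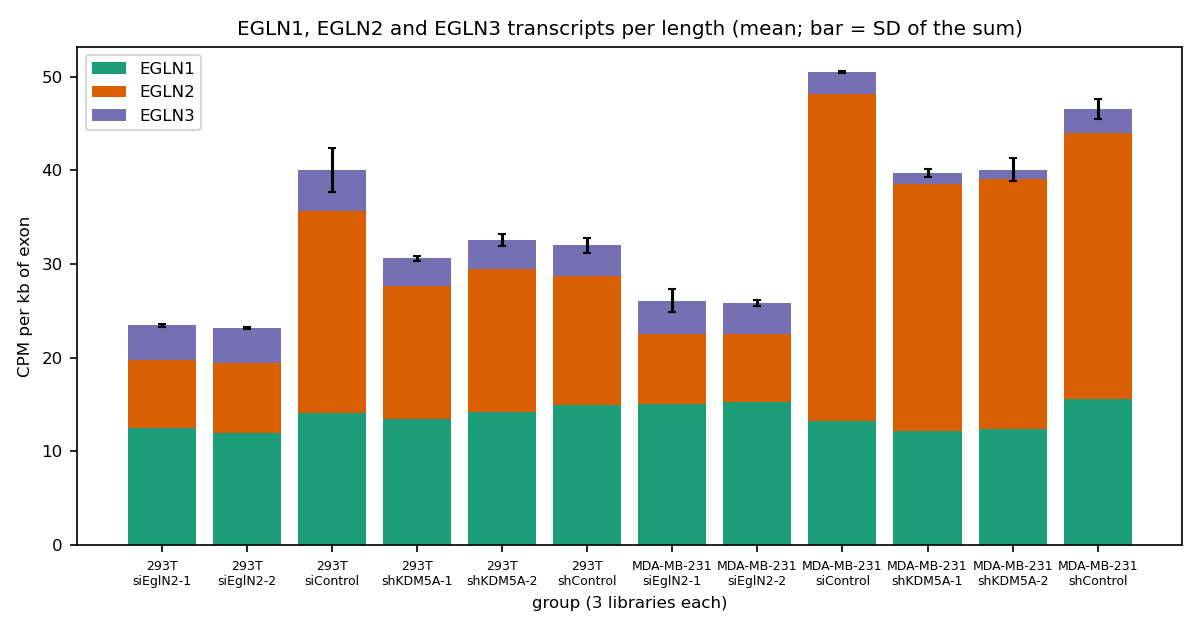
Mean CPM per kb of exon of EGLN1, EGLN2 and EGLN3, stacked, in each of the 12 groups; error bars are the SD of the sum over 3 libraries. The sum is 23.4 and 23.1 with the EGLN2 siRNAs against 40.0 in siControl in 293T cells, and 26.1 and 25.8 against 50.5 in MDA-MB-231 cells, and the EGLN2 segment accounts for most of the gap.

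P4HTM, a hydroxylase of the endoplasmic reticulum membrane, had 33.4, 33.6 and 32.9 CPM with siEglN2-1 and 33.3, 32.6 and 31.8 CPM with siEglN2-2 in MDA-MB-231 cells, against 35.4, 34.6 and 32.6 CPM in siControl. The groups overlapped, and its log2 fold changes of -0.04 and -0.07 missed the threshold (95% intervals -0.14 to 0.06 and -0.17 to 0.02, adjusted p = 0.542 and 0.234). HIF1AN, the asparaginyl hydroxylase, was higher in both lines. It had 114, 113 and 113 CPM with siEglN2-1 and 114, 108 and 121 CPM with siEglN2-2 in 293T cells, against 94.7, 93.3 and 86.2 CPM in siControl. In MDA-MB-231 cells it had 99.0, 102 and 101 CPM with siEglN2-1 and 106, 108 and 107 CPM with siEglN2-2, against 83.4, 89.7 and 84.4 CPM in siControl. No knockdown library overlapped a control in either line. The log2 fold change of HIF1AN was 0.30 and 0.32 in 293T cells (SE 0.05 each, adjusted p = 0.00116 and 0.000835) and 0.23 and 0.32 in MDA-MB-231 cells (SE 0.03 each, adjusted p = 1.47e-07 and 3.91e-11). The difference between lines was -0.03 (95% interval -0.13 to 0.07, adjusted p = 0.679). Leaving out the unnumbered control gave 0.26 and 0.28 for HIF1AN in 293T cells (adjusted p = 3.75e-06 and 1.7e-06) and a difference between lines of 0 (adjusted p = 0.981). HIF1AN overlaps NDUFB8 on the opposite strand, and P4HTM overlaps WDR6 on the same strand.

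VHL, the subunit that recognises hydroxylated HIF, fell in both lines. In 293T cells it had 168, 168 and 165 CPM with siEglN2-1 and 161, 162 and 160.3 CPM with siEglN2-2, against 205, 200.1 and 174 CPM in siControl. In MDA-MB-231 cells VHL had 78.3, 74.8 and 81.7 CPM with siEglN2-1 and 77.9, 80.9 and 80.6 CPM with siEglN2-2, against 99.9, 102 and 98.8 CPM in siControl. The lowest control, the unnumbered 293T library at 174 CPM, was still above every 293T knockdown library. The log2 fold change was -0.21 and -0.26 in 293T cells (SE 0.06 each, adjusted p = 0.0134 and 0.00451) and -0.36 and -0.33 in MDA-MB-231 cells (SE 0.04 each, adjusted p = 1.64e-11 and 1.16e-10). Without siEglN2-1 replicate 3 the 293T call for siEglN2-1 was lost (adjusted p = 0.0532). The lines' effects differed by -0.10 (95% interval -0.21 to 0.01, adjusted p = 0.178). Leaving out the unnumbered control, VHL changed by -0.28 and -0.33 in 293T cells (adjusted p = 6.31e-09 and 4.25e-10), and the lines differed by -0.04 (adjusted p = 0.376).

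HIF1A, the broadly expressed alpha subunit, gave the largest change after the target itself, in MDA-MB-231 cells. It had 305, 304 and 309 CPM with siEglN2-1 and 306, 313 and 305 CPM with siEglN2-2, against 511, 502 and 502 CPM in siControl. The 6 knockdown libraries spanned 304 to 313 CPM and lay well below all controls. Its log2 fold change was -0.72 and -0.71 (SE 0.02 each, adjusted p = 2.49e-29 and 3.32e-29). In 293T cells HIF1A had 111, 114 and 113 CPM with siEglN2-1 and 114, 111 and 111 CPM with siEglN2-2, against 128, 131 and 105 CPM in siControl. The 6 knockdown libraries lay between the unnumbered control and the other 2, so the call turns on that library. With it the log2 fold change was -0.10 and -0.11 (adjusted p = 0.293 and 0.252), and without it -0.20 and -0.21 (adjusted p = 8.36e-06 and 4.08e-06). The difference between lines was -0.60 (SE 0.06, adjusted p = 1.46e-06) with that library and -0.52 (SE 0.03, adjusted p = 1.63e-15) without it.

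EPAS1, which encodes HIF-2 alpha, had 109, 108 and 107 CPM with siEglN2-1 and 113, 114 and 112 CPM with siEglN2-2 in MDA-MB-231 cells, against 131, 126 and 129 CPM in siControl. It fell there without overlap, with log2 fold changes of -0.26 and -0.19 (SE 0.03 each, adjusted p = 2.26e-10 and 3.15e-07). In 293T cells EPAS1 had 26.1, 23.6 and 22.7 CPM with siEglN2-1 and 25.2, 23.5 and 24.6 CPM with siEglN2-2, against 25.9, 25.2 and 20.1 CPM in siControl. These groups overlapped, and the log2 fold changes of 0.02 and 0.04 missed the threshold (95% intervals -0.16 to 0.20 and -0.15 to 0.22), as did -0.08 and -0.07 without the unnumbered control. The difference between lines was -0.24 (SE 0.08, adjusted p = 0.0229), and it missed the threshold without MDA-MB-231 siControl replicate 1 (adjusted p = 0.0567). Without the unnumbered 293T control it was smaller, at -0.15 (SE 0.05, adjusted p = 0.0306).

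ARNT, the shared partner of both alpha subunits, was higher with both siRNAs in both lines. In 293T cells it had 73.1, 75.1 and 73.3 CPM with siEglN2-1 and 72.2, 72.4 and 73.8 CPM with siEglN2-2, against 66.7, 64.9 and 55.0 CPM in siControl. In MDA-MB-231 cells ARNT had 47.4, 41.3 and 43.6 CPM with siEglN2-1 and 43.3, 42.1 and 44.2 CPM with siEglN2-2, against 39.3, 37.8 and 37.9 CPM in siControl. Every knockdown library exceeded every control of its line. The fitted log2 change was 0.25 and 0.23 in 293T cells (SE 0.07 each, adjusted p = 0.0138 and 0.0214) and 0.20 and 0.17 in MDA-MB-231 cells (SE 0.05 each, adjusted p = 0.000553 and 0.00249). For ARNT the effect in MDA-MB-231 minus that in 293T cells was -0.04 (95% interval -0.19 to 0.10, adjusted p = 0.704). Without the unnumbered control it was 0.03 (adjusted p = 0.723), and the 293T values were 0.17 and 0.14 (adjusted p = 0.00051 and 0.00188). Without siEglN2-1 replicate 2 the 293T call for siEglN2-1 was lost (adjusted p = 0.0523), and without any 1 siEglN2-2 library that for siEglN2-2 (adjusted p = 0.0567 to 0.0711).

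The EGLN2 siRNAs were also compared with each other. Between siEglN2-2 and siEglN2-1, edgeR called 0 of 8 genes in 293T cells, beside a background of 0% of 17622 tested genes, and 0 of 9 in MDA-MB-231 cells, beside 0.00662%. At an unadjusted p under 0.05, 0 of 8 and 2 of 9 passed, EPAS1 (0.07) and HIF1AN (0.09) in MDA-MB-231 cells, beside 1.57% and 6.22% of all tested genes. DESeq2 called 0 of 8 and 0 of 9 of these genes. The widest 95% interval among the 293T genes, that of EPAS1, ran from -0.17 to 0.20. Between the KDM5A shRNAs, edgeR called 49.3% of all genes in 293T cells and 56.6% in MDA-MB-231 cells. The siRNA sequences are not given in the sources used here, and whether the siRNAs act as independent reagents was not tested. Counts with both EGLN2 siRNAs are therefore not read as agreement of independent reagents.

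**Figure D3:**
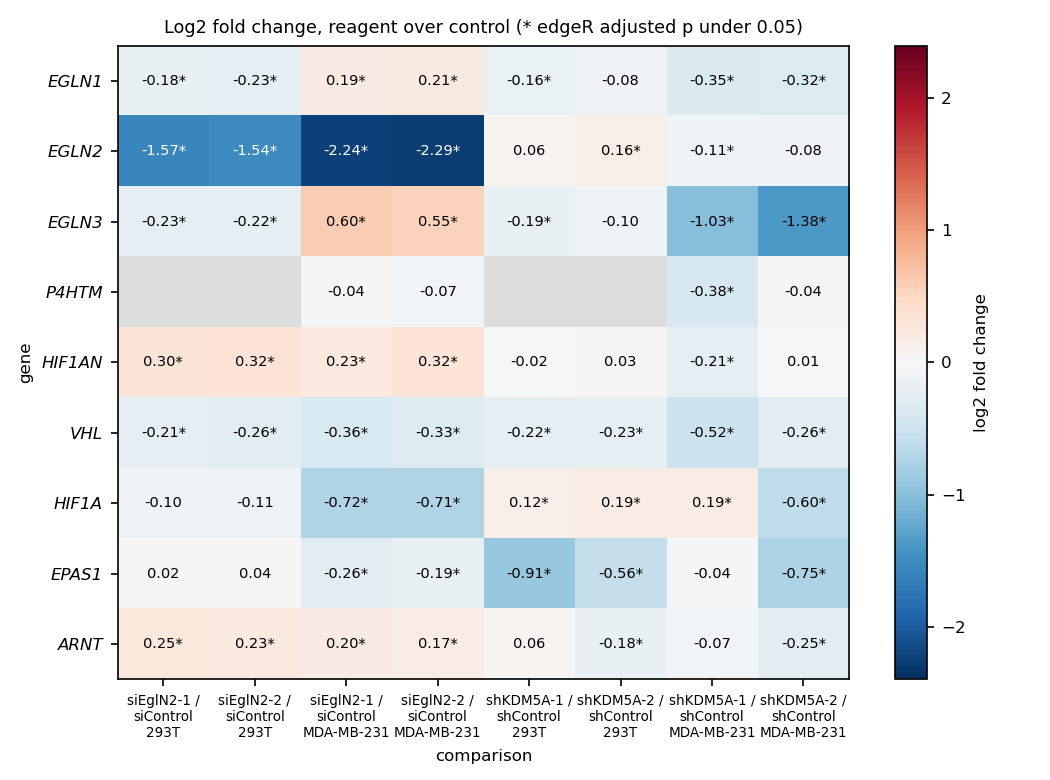
Log2 fold change of each gene (rows) in the 8 comparisons of a reagent with its control (columns), with an asterisk where the edgeR adjusted p was under 0.05 and grey where the gene was not analysed. EGLN2 reaches -2.29 with siEglN2-2 in MDA-MB-231 cells, EGLN3 is positive with the EGLN2 siRNAs and negative with the KDM5A shRNAs in that line, and HIF1A differs in sign between the KDM5A shRNAs there.

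The second target, KDM5A, fell with both shRNAs. It had 27.6, 27.7 and 26.3 CPM with shKDM5A-1 and 30.9, 32.7 and 31.2 CPM with shKDM5A-2 in 293T cells, against 66.2, 67.6 and 66.5 CPM in shControl. In MDA-MB-231 cells KDM5A had 16.1, 17.4 and 16.9 CPM with shKDM5A-1 and 19.4, 18.3 and 18.6 CPM with shKDM5A-2, against 54.9, 48.7 and 47.0 CPM in shControl. No library contradicted its label. The log2 fold change of KDM5A was -1.30 and -1.08 in 293T cells and -1.57 and -1.42 in MDA-MB-231 cells (adjusted p = 1.56e-22, 3.91e-21, 2.77e-20 and 1.64e-19).

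With both KDM5A shRNAs EPAS1, VHL and HIF1A passed in 293T cells, and EGLN1, EGLN3 and VHL in MDA-MB-231 cells. In 293T cells 3 of 8 passed with both shRNAs in the same direction (1 higher, 2 lower), beside 13.4% of all 17376 tested genes, and in MDA-MB-231 cells 3 of 9 (0 higher, 3 lower), beside 32.2% of 15454. With shKDM5A-1 alone 5 of 8 passed in 293T cells beside 42.2%, and 7 of 9 in MDA-MB-231 cells beside 55.3%. The shKDM5A-1 count in 293T cells was 3 without shKDM5A-1 replicate 3 or without shControl replicate 3. With shKDM5A-2 alone 5 of 8 passed beside 39%, and 6 of 9 beside 59%. The median absolute log2 fold change was 0.14 and 0.17 in 293T cells beside 0.17 and 0.16 for all genes, and 0.21 and 0.26 in MDA-MB-231 cells beside 0.24 and 0.26. The share in MDA-MB-231 cells for both shRNAs together was close to the background, so it is no result about these genes.

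**Figure D4:**
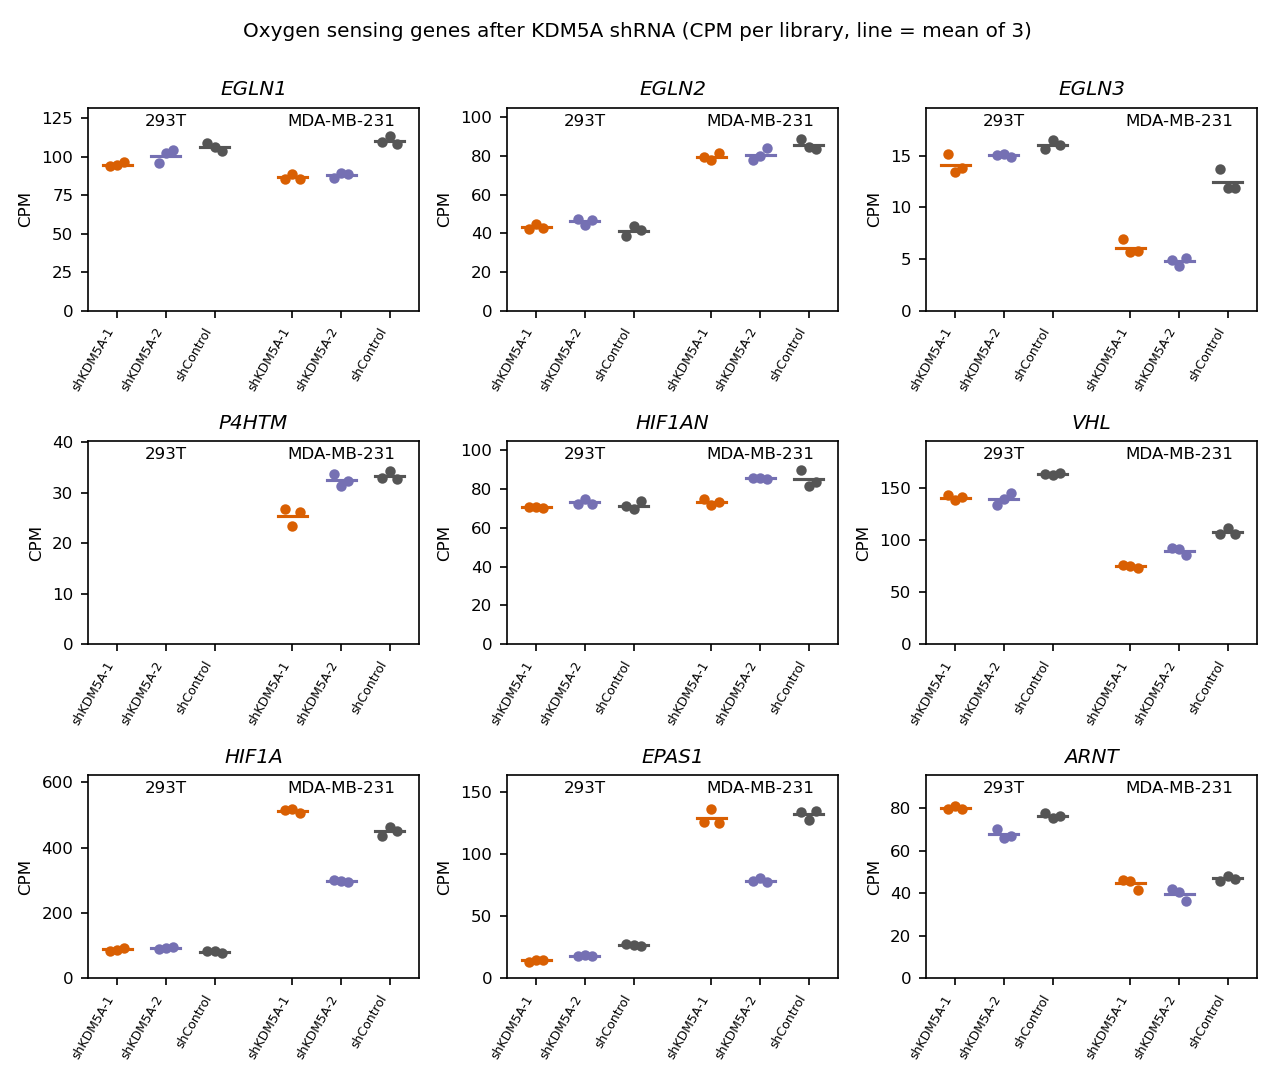
CPM of each gene in every library of the KDM5A shRNA experiments, with shKDM5A-1, shKDM5A-2 and shControl from left to right within 293T and then MDA-MB-231 cells; points are libraries and lines are means of 3. EPAS1 lies below its controls with both shRNAs in 293T cells, and in MDA-MB-231 cells HIF1A and EPAS1 are low with shKDM5A-2 only.

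EGLN3 gave the largest change of the 9 genes with the KDM5A shRNAs. In MDA-MB-231 cells it had 6.91, 5.62 and 5.74 CPM with shKDM5A-1 and 4.89, 4.30 and 5.07 CPM with shKDM5A-2, against 13.7, 11.9 and 11.8 CPM in shControl. In 293T cells EGLN3 had 15.2, 13.4 and 13.7 CPM with shKDM5A-1 and 15.1, 15.2 and 14.8 CPM with shKDM5A-2, against 15.6, 16.5 and 16.1 CPM in shControl. All knockdown libraries were below their controls, by a small margin in 293T cells. For EGLN3 the log2 fold change was -1.03 and -1.38 in MDA-MB-231 cells (SE 0.11 each, adjusted p = 5.48e-10 and 1.46e-12). In 293T cells it was -0.19 (adjusted p = 0.0366) and -0.10 (95% interval -0.23 to 0.04, adjusted p = 0.289). Between the shRNAs EGLN3 differed by -0.36 in MDA-MB-231 cells (adjusted p = 0.0139), a call lost without shKDM5A-1 replicate 1 (adjusted p = 0.118) or shKDM5A-2 replicate 2 (adjusted p = 0.0809). The 293T call for shKDM5A-1 was lost without shKDM5A-1 replicate 2 or 3 or shControl replicate 2 or 3 (adjusted p = 0.0761 to 0.153). The difference between lines was -1.06 (SE 0.11, adjusted p = 1e-10).

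EGLN1 fell with both shRNAs in MDA-MB-231 cells, to 85.6, 88.6 and 85.8 CPM with shKDM5A-1 and 86.2, 89.2 and 89.0 CPM with shKDM5A-2, against 109, 113 and 109 CPM in shControl. Its log2 fold changes there were -0.35 and -0.32 (SE 0.03 each, adjusted p = 2.26e-10 and 9.47e-10), with no overlap. In 293T cells EGLN1 had 93.7, 94.5 and 96.6 CPM with shKDM5A-1 and 95.7, 102 and 104 CPM with shKDM5A-2, against 109, 106 and 104 CPM in shControl. The shKDM5A-1 libraries lay below the controls and shKDM5A-2 overlapped them, with log2 fold changes of -0.16 (adjusted p = 0.00013) and -0.08 (adjusted p = 0.0621). Without shKDM5A-2 replicate 3 or shControl replicate 3 the shKDM5A-2 value passed (adjusted p = 0.0237 and 0.0485). The lines differed by -0.22 (SE 0.04, adjusted p = 2.56e-05).

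EGLN2 itself changed little when KDM5A was lowered. In MDA-MB-231 cells it had 79.3, 77.8 and 81.6 CPM with shKDM5A-1 and 78.0, 80.1 and 84.0 CPM with shKDM5A-2, against 88.9, 84.8 and 83.7 CPM in shControl, log2 fold changes of -0.11 (adjusted p = 0.0181) and -0.08 (adjusted p = 0.0549). In 293T cells EGLN2 had 42.2, 44.7 and 42.7 CPM with shKDM5A-1 and 47.4, 44.1 and 46.9 CPM with shKDM5A-2, against 38.3, 43.8 and 41.7 CPM in shControl, log2 fold changes of 0.06 (adjusted p = 0.33) and 0.16 (adjusted p = 0.008). These calls rested on single libraries: the 293T call was lost without shControl replicate 1 (adjusted p = 0.082), and the MDA-MB-231 call without shKDM5A-1 replicate 2 (adjusted p = 0.0657) or shControl replicate 1 (adjusted p = 0.0851). The shKDM5A-2 value in MDA-MB-231 cells passed without shKDM5A-1 replicate 3, shKDM5A-2 replicate 3 or shControl replicate 3 (adjusted p = 0.0238 to 0.0427). The lines differed by -0.21 (SE 0.05, adjusted p = 0.00153).

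VHL fell with both shRNAs in both lines. In 293T cells it had 143, 138 and 141 CPM with shKDM5A-1 and 134, 139.5 and 145 CPM with shKDM5A-2, against 163, 162 and 165 CPM in shControl, log2 fold changes of -0.22 and -0.23 (SE 0.03 each, adjusted p = 1.86e-07 and 5.49e-08). In MDA-MB-231 cells VHL had 76.2, 75.3 and 72.8 CPM with shKDM5A-1 and 92.5, 91.5 and 85.3 CPM with shKDM5A-2, against 106, 112 and 106 CPM in shControl, log2 fold changes of -0.52 and -0.26 (SE 0.04 each, adjusted p = 1.74e-13 and 2.64e-07). The shRNAs differed from each other by 0.26 in MDA-MB-231 cells (SE 0.04, adjusted p = 6.37e-07). Of the 8 genes measured in all 4 experiments, VHL alone was lower with each of the reagents in both lines and passed each time. The siEglN2-1 exception is given above. The share of all genes that did so was not counted, so this is a description only.

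HIF1A and EPAS1 separated the KDM5A shRNAs from each other in MDA-MB-231 cells. HIF1A had 515, 518 and 505 CPM with shKDM5A-1 and 300.0, 296 and 293 CPM with shKDM5A-2, against 436, 464 and 451 CPM in shControl. The shKDM5A-1 libraries lay above all controls and the shKDM5A-2 libraries below them. The log2 fold change was 0.19 (SE 0.02, adjusted p = 7.64e-08) and -0.60 (SE 0.03, adjusted p = 1.07e-19), and shKDM5A-2 minus shKDM5A-1 was -0.79 (SE 0.03, adjusted p = 9.37e-23). EPAS1 had 126, 136 and 125 CPM with shKDM5A-1 and 78.1, 80.4 and 77.8 CPM with shKDM5A-2, against 134, 128 and 135 CPM in shControl. The shKDM5A-1 libraries overlapped the controls and the shKDM5A-2 libraries did not. For EPAS1 the log2 fold change was -0.04 (95% interval -0.11 to 0.03, adjusted p = 0.38) and -0.75 (SE 0.04, adjusted p = 8.05e-18), a difference between shRNAs of -0.71 (SE 0.04, adjusted p = 3.4e-17). KDM5A itself differed between these shRNAs by 0.16 (adjusted p = 0.0636). Which shRNA reflects loss of KDM5A was not tested.

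In 293T cells both shRNAs moved each alpha subunit in 1 direction, EPAS1 down and HIF1A up. EPAS1 had 13.4, 14.7 and 14.7 CPM with shKDM5A-1 and 17.9, 18.8 and 17.9 CPM with shKDM5A-2, against 27.7, 27.0 and 26.0 CPM in shControl, log2 fold changes of -0.91 and -0.56 (SE 0.06 each, adjusted p = 3.03e-14 and 7.56e-10). HIF1A had 84.6, 87.4 and 91.3 CPM with shKDM5A-1 and 90.0, 91.0 and 94.2 CPM with shKDM5A-2, against 82.8, 82.4 and 76.7 CPM in shControl, log2 fold changes of 0.12 and 0.19 (adjusted p = 0.0052 and 3.4e-05). The EPAS1 change was smaller with shKDM5A-2 than with shKDM5A-1 (difference 0.35, SE 0.07, adjusted p = 4.35e-05). Neither gene's knockdown libraries overlapped the controls, and the HIF1A call for shKDM5A-1 was lost without shKDM5A-1 replicate 3 (adjusted p = 0.0607) or shControl replicate 3 (adjusted p = 0.0575). Per exon length, HIF1A exceeded EPAS1 7.47 ± 0.226 and 6.12 ± 0.246 times with the shRNAs, against 3.64 ± 0.0656 times in shControl (SD, n = 3 each). The KDM5A effect averaged over shRNAs differed between lines by -0.36 for HIF1A (SE 0.04, adjusted p = 1.34e-10) and 0.34 for EPAS1 (SE 0.06, adjusted p = 5.78e-06), averages that in MDA-MB-231 cells join shRNAs with different effects.

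HIF1AN, P4HTM and ARNT passed with at most 1 of the shRNAs in a line. HIF1AN had 74.5, 71.6 and 73.4 CPM with shKDM5A-1 and 85.7, 85.4 and 85.1 CPM with shKDM5A-2 in MDA-MB-231 cells, against 89.7, 81.6 and 83.3 CPM in shControl, log2 fold changes of -0.21 (adjusted p = 1.97e-05) and 0.01 (adjusted p = 0.816). P4HTM had 26.8, 23.3 and 26.2 CPM with shKDM5A-1 and 33.6, 31.4 and 32.4 CPM with shKDM5A-2 there, against 32.9, 34.3 and 32.6 CPM in shControl, log2 fold changes of -0.38 (adjusted p = 9.94e-07) and -0.04 (adjusted p = 0.596). Both were low with shKDM5A-1 only, and shKDM5A-2 minus shKDM5A-1 was 0.22 for HIF1AN (adjusted p = 7.67e-06) and 0.35 for P4HTM (adjusted p = 4.56e-06). ARNT was low with shKDM5A-2, with 46.4, 45.7 and 41.6 CPM under shKDM5A-1 and 41.9, 40.3 and 36.3 CPM under shKDM5A-2 in MDA-MB-231 cells, against 45.6, 48.3 and 46.8 CPM in shControl, log2 fold changes of -0.07 (adjusted p = 0.243) and -0.25 (adjusted p = 0.00016). In 293T cells ARNT had 79.5, 80.8 and 79.4 CPM with shKDM5A-1 and 70.0, 66.0 and 67.1 CPM with shKDM5A-2, against 77.8, 75.3 and 76.3 CPM in shControl, log2 fold changes of 0.06 (adjusted p = 0.13) and -0.18 (adjusted p = 5.56e-05). For ARNT, shKDM5A-2 minus shKDM5A-1 was -0.24 in 293T cells (adjusted p = 3.14e-07) and -0.18 in MDA-MB-231 cells (adjusted p = 0.00533), the MDA-MB-231 call being lost without shKDM5A-2 replicate 3 (adjusted p = 0.0777). HIF1AN in 293T cells missed the threshold with either shRNA, at -0.02 and 0.03. Between the shRNAs, 3 of 8 genes passed in 293T cells beside 49.3% of all genes, and 7 of 9 in MDA-MB-231 cells beside 56.6%.

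Controls of the lines were scaled together across separately deposited tables. In controls of MDA-MB-231 against controls of 293T, all 8 passed (5 higher, 3 lower), where 83.6% of 14271 tested genes did, 40.6% higher and 43% lower. This share was close to the background, so it is no result about these genes. Their median absolute log2 difference was 0.54, beside 0.71 for all genes. EPAS1 and HIF1A were far higher in MDA-MB-231 cells, by 2.56 (SE 0.06, adjusted p = 2.93e-14) and 2.46 (SE 0.08, adjusted p = 1.26e-12) log2 units. EGLN2 was higher there by 1.07 (SE 0.07, adjusted p = 4.93e-09), HIF1AN by 0.27 and EGLN1 by 0.17, while the log2 difference was -0.44 for EGLN3, -0.51 for ARNT and -0.58 for VHL. Per exon length HIF1A was the most abundant of the 9 in MDA-MB-231 controls, at 119.0 ± 1.21 CPM per kb in siControl and 106.0 ± 3.23 in shControl (SD, n = 3 each). VHL was the most abundant in 293T controls, at 51.6 ± 4.37 CPM per kb in siControl and 43.7 ± 0.336 in shControl (SD, n = 3 each). On the joined exon length EGLN3 was the lowest in all 4 control groups, at 2.32 to 4.33 CPM per kb. Lengths of the transcripts expressed were not measured, so these ranks hold for the joined exon length only. In 293T siControl the next gene up, EPAS1, lay within its own SD of EGLN3 (4.6 ± 0.615 CPM per kb).

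Known HIF targets outside the 9 genes were counted beside them. This list, and those of pathway partners and reported substrates below, were chosen with earlier results of these data known. Their counts beside all genes are therefore descriptions only. With both EGLN2 siRNAs, 1 of 22 measured targets was higher and 14 lower in 293T cells, beside 14.6% and 15.5% of all genes, with median log2 fold changes of -0.32 and -0.31 beside 0.01 for all genes. Without the unnumbered control, 1 was higher and 17 lower, a setting in which the share of all genes was not counted by direction. Calls among all genes rose there too, to 7741 and 7640 from 6190 and 6019, so the rise is no result about the targets. The fallers in 293T cells included the stress gene NDRG1 (-0.45 and -0.46), ANKRD37 (-0.66 and -0.71), and the glycolytic enzymes ENO1 (-0.46 and -0.45) and HK2 (-0.46 and -0.45). VEGFA, the angiogenic growth factor, rose there (0.36 and 0.39) and was named after its values were seen. In the same 293T libraries the epithelial markers CDH1 (0.82 and 0.88) and EPCAM (0.74 and 0.83) rose and KRT18 fell (-0.20 with each siRNA), 3 of the 4 epithelial markers tested, and their part in the target shift was not tested. In MDA-MB-231 cells 5 of 23 were higher and 11 lower, beside 18.3% and 20.4%, with medians of -0.04 and -0.05 beside 0. VEGFA averaged 297 ± 6.15 and 295 ± 3.62 CPM with siEglN2-1 and siEglN2-2 there, against 507 ± 5.63 CPM in siControl (SD, n = 3 each), so it moved in opposite directions in the 2 lines, though that difference was not tested. The collagen prolyl hydroxylase P4HA2 (-0.71 and -0.70) and the carbonic anhydrases CA9 (-0.43 and -0.47) and CA12 (-0.41 and -0.39) also fell in MDA-MB-231 cells. NDRG1, HK2, P4HA2 and CA12 were called lower with both siRNAs in each line. KDM3A (0.36 and 0.36) and the glucose transporter gene SLC2A3 (0.36 and 0.34), named after their values were seen, rose.

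Among the 8 comparisons the medians of this target list, chosen with earlier results known, lay lowest with the KDM5A shRNAs in MDA-MB-231 cells. With both shRNAs 0 of 23 were higher and 21 lower, beside 16.4% and 15.8% of all genes, with medians of -0.61 and -0.95 beside 0. NDRG1 averaged 154 ± 2.61 and 84.0 ± 3.19 CPM with shKDM5A-1 and shKDM5A-2, against 405 ± 5.03 CPM in shControl, and CA12 50.4 ± 1.52 and 32.1 ± 1.14 CPM, against 112 ± 1.82 CPM (SD, n = 3 each). CA9 fell by log2 fold changes of -1.59 and -2.92 and ANKRD37 by -1.14 and -1.61. EGLN1 and EGLN3, themselves known targets, fell in the same libraries. The HIF1A transcript was higher with shKDM5A-1 and lower with shKDM5A-2, while the target median was below 0 with both. In 293T cells 2 of 22 targets were higher and 6 lower with both shRNAs, beside 7.33% and 6.11% of all genes, with medians of -0.18 and -0.03. NDRG1 (-0.26 and -0.77), P4HA1 (-0.29 and -0.56) and P4HA2 (-0.33 and -0.34) fell there and the vasoactive peptide gene ADM rose (0.42 and 0.32). Oxygen, cell density and medium were not measured, and their part in the target shifts was not tested.

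**Figure D5:**
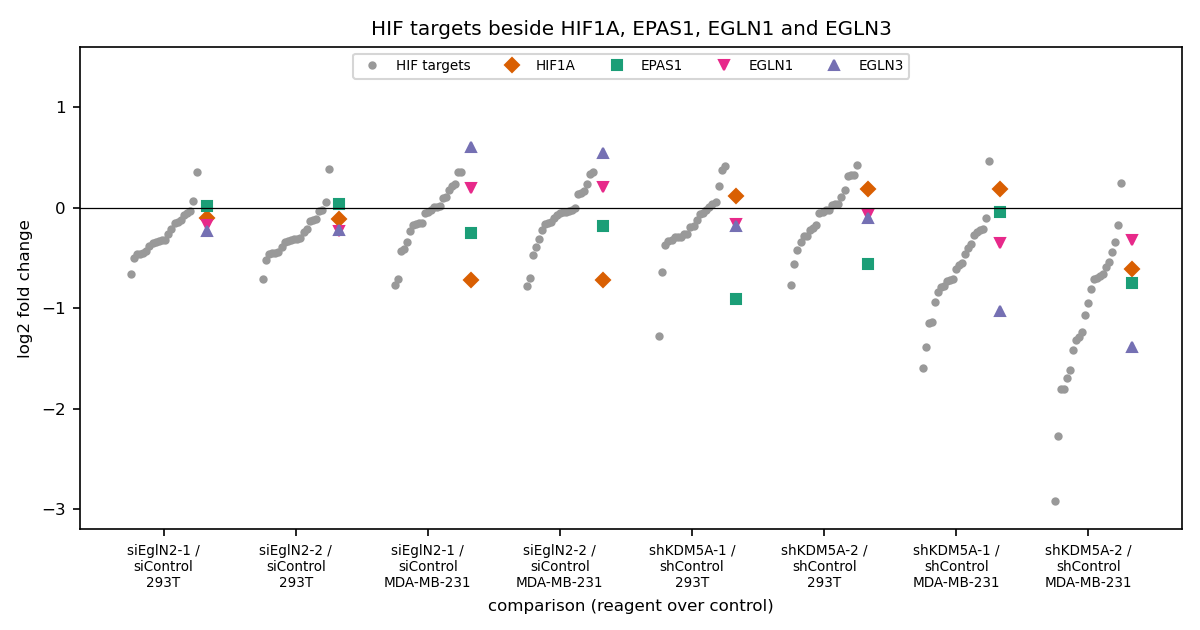
Log2 fold change of each measured HIF target (grey points, sorted within a comparison) beside HIF1A, EPAS1, EGLN1 and EGLN3 (coloured symbols) in the 8 comparisons of a reagent with its control. Most targets lie below 0 with both KDM5A shRNAs in MDA-MB-231 cells (medians -0.61 and -0.95), where HIF1A stands at 0.19 and -0.60.

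Of 22 listed partners of the pathway (ligase subunits, chaperones, coactivators and alternative regulators), 18 were found in each table. With both EGLN2 siRNAs 4 were higher and 5 lower in 293T cells, beside 14.6% and 15.5% of all genes, with medians of -0.01 and 0.01. Without the unnumbered control 5 were higher and 7 lower, again with no count of all genes by direction. Calls rose among all genes too in that setting. In MDA-MB-231 cells 6 were higher and 4 lower, beside 18.3% and 20.4%, with medians of 0.02 and 0.01. AJUBA, a scaffold reported to join hydroxylases to VHL, rose in both lines (0.74 and 0.76 in 293T cells, 0.66 and 0.68 in MDA-MB-231 cells), as did the ARNT paralog ARNT2 (0.41 and 0.48, and 0.69 and 0.84). CITED2, which competes with HIF for p300, rose in MDA-MB-231 cells (0.89 and 0.87), and the scaffold LIMD1 fell there (-0.66 and -0.65). The ubiquitin-conjugating enzyme UBE2D1 rose in both lines (0.51 and 0.52 in 293T cells, 0.47 and 0.40 in MDA-MB-231 cells), and the chaperone HSP90AB1 fell in both (-0.38 and -0.37, and -0.11 and -0.12). With both KDM5A shRNAs 3 were higher and 1 lower in 293T cells, beside 7.33% and 6.11%, and 6 higher and 2 lower in MDA-MB-231 cells, beside 16.4% and 15.8%, with medians of 0.12 and -0.02, and 0.11 and 0.03. HSP90AA1 rose (0.25 and 0.22, and 0.39 and 0.25) and OS9 fell (-0.17 and -0.17, and -0.30 and -0.35) in both lines. SIAH2, a ligase of the EGLN proteins, rose in MDA-MB-231 cells (0.33 and 0.29).

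Of 9 genes reported as EglN2 or VHL substrates or partners, 2 were higher and 1 lower with both EGLN2 siRNAs in 293T cells. This stood beside 14.6% and 15.5% of all genes. Without the unnumbered control 2 were higher and 2 lower, with no count of all genes by direction, and calls rose among all genes too. In MDA-MB-231 cells 1 was higher and 3 lower, beside 18.3% and 20.4%. The medians were 0.05 and 0.02 in 293T cells, and -0.12 and -0.15 in MDA-MB-231 cells. ZHX2, a transcription factor reported as a VHL substrate, rose in both lines (0.34 and 0.43 in 293T cells, 1.00 and 1.09 in MDA-MB-231 cells), and the purine synthesis enzyme ADSL fell in both (-0.22 and -0.21, and -0.12 and -0.15). The centrosome gene CEP192 rose in 293T cells (0.74 and 0.69) and CCND1, the cyclin D1 gene, fell in MDA-MB-231 cells (-0.34 and -0.32). KDM5A, also on this list, fell slightly with the EGLN2 siRNAs in MDA-MB-231 cells (-0.19 and -0.17, adjusted p = 0.00137 and 0.00353). With the KDM5A shRNAs 0 were higher and 1 lower in 293T cells, the 1 being KDM5A, beside 7.33% and 6.11% of all genes, and 5 were higher and 1 lower, again KDM5A, in MDA-MB-231 cells, beside 16.4% and 15.8%, with medians of -0.02 and 0, and 0.27 and 0.28. SFMBT1 (0.32 and 0.72), FOXO3 (0.36 and 0.28) and PPARGC1A (0.34 and 0.31) rose there.

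Across all 36 libraries, with log2 CPM centred on the mean of each experiment, the pattern of EGLN1 was most like that of EGLN3 among the EGLN genes (Pearson r = 0.818). Among 11372 genes compared, the closest to EGLN1 were MRFAP1L1 (r = 0.909), UBE2R2 (r = 0.869) and ILK (r = 0.855). The closest to EGLN2 were UBE2Z (r = 0.988), RACGAP1 (r = 0.982) and CLDND1 (r = 0.978), and the closest to EGLN3 were MXI1 (r = 0.926), itself one of the listed HIF targets, NFKB2 (r = 0.912) and ACO1 (r = 0.909). The libraries share groups and controls, so these values describe likeness only.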

How the data were processed

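RNA was made with an RNeasy kit and libraries with NEBNext Ultra II from 1 ug of total RNA, per the labels' protocols. The submitters' processing notes name the builds hg19 and GRCh38, the quantifier Salmon 0.1.19 and the aligner STAR 2.4.2, and do not say what each was used for. The deposited tables, 1 per line and target, hold estimated counts per gene symbol, not all of them whole, and log2 normalized values that the authors deposited beside them and that were not used, 1 such column of the unnumbered control being left unmapped. Every row reached a count of 10 in at least 1 library. Between 20 and 22 rows per table, holding 0.194% to 0.209% of counts, had dates in place of symbols and were dropped.

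Counts were rounded. edgeR 4.0.16 in R 4.3.3 was used with TMM scaling, a minimum count of 10 (filterByExpr), and robust quasi-likelihood tests, two-sided, with 1 fit per experiment of 9 libraries and Benjamini-Hochberg adjustment over all genes tested. A gene was called at an adjusted p under 0.05. Effects were compared between lines by an interaction over both experiments of a target. DESeq2 1.42.0 was an alternative. Exon lengths were those of all exons of a gene joined in the GENCODE 29 basic annotation, and promoters came from RefSeq. The 9 genes and the lists of HIF targets, pathway partners, reported substrates and cell markers were chosen with earlier results of these data known. List genes were named as up to 4 per list and experiment, called with both reagents in the same direction with the largest smaller absolute change. Residuals of same-numbered libraries correlated at -0.0872 to 0.0773 over 34 pairs, with 0 over 0.1, so no shared effect of a replicate number was seen. Whether same-numbered libraries were prepared together is not given in the sources used here.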

Additional observations from a re-analysis of the deposited data

Results flagged for a closer look

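The effect of a knockdown was compared between lines as the effect in MDA-MB-231 minus the effect in 293T cells, averaged over both reagents, and 12 such differences passed an adjusted p of 0.05 in edgeR. With the EGLN2 siRNAs they were 0.41 for EGLN1, -0.70 for EGLN2, 0.81 for EGLN3, -0.60 for HIF1A and -0.24 for EPAS1 (log2 units), 5 of 8 genes beside 31.2% of 14579 genes tested. Without the unnumbered 293T siControl library, which stood apart, they were 0.42, -0.81, 0.77, -0.52 and -0.15 in the same order of genes, and each still passed. EGLN1 and EGLN3 were higher in MDA-MB-231 and lower in 293T knockdown libraries, in all 6 libraries of each. With the KDM5A shRNAs they were -0.22 for EGLN1, -0.21 for EGLN2, -1.06 for EGLN3, -0.17 for VHL, -0.36 for HIF1A, 0.34 for EPAS1 and -0.11 for HIF1AN, 7 of 8 genes beside 44.7% of 14767. For HIF1A and EPAS1 these averages join shRNAs that disagree. With shKDM5A-1 and shKDM5A-2, HIF1A changed by 0.19 and -0.60 in MDA-MB-231 cells and by 0.12 and 0.19 in 293T cells. EPAS1 changed by -0.04 and -0.75, and by -0.91 and -0.56, in the same order. The value for HIF1AN lost its call with DESeq2 (adjusted p = 0.0622) and without 293T shControl replicate 1 or 2, MDA-MB-231 shKDM5A-1 replicate 2 or MDA-MB-231 shControl replicate 1 (adjusted p = 0.0552 to 0.194). Leaving out 1 library brought 2 further differences past the threshold: that of VHL with the EGLN2 siRNAs without 293T siControl replicate 1 (-0.14, adjusted p = 0.0487), and that of ARNT with the KDM5A shRNAs without MDA-MB-231 shKDM5A-2 replicate 1 (-0.14, adjusted p = 0.0357).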

How the results depend on the processing

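Of 15 counts of genes called, 240 of 242 alternatives (no filter on low counts, median-of-ratios size factors, DESeq2, a replicate block, an adjusted p under 0.01, the libraries of 1 comparison alone, each library left out) stayed within 1.5 times. The exceptions were both for shKDM5A-1 against shControl in 293T cells, where leaving out 1 library gave 3 to 5 genes. Of 126 single-gene values, 107 kept their call under all alternatives run, and 0 of 2018 alternative values reversed a called direction. With DESeq2 the calls lost were EGLN3 with shKDM5A-1 in 293T cells (adjusted p = 0.125), EGLN1 between the shRNAs in 293T cells (0.0696), EGLN2 with shKDM5A-1 in MDA-MB-231 cells (0.077) and EGLN3 between the shRNAs there (0.086), beside HIF1AN between lines. No shared effect of a replicate number was seen, and whether the numbers pair libraries is not given. With the replicate block, which leaves out the unnumbered control, HIF1A with the EGLN2 siRNAs in 293T cells was -0.20 and -0.21 (adjusted p = 0.00012 and 6.55e-05). This made 7 of 8 genes called with each siRNA, when 7199 and 7068 of all genes were called. No other call of the 9 genes changed with the block. A block could not be fitted for the controls of the lines. Of 168 list counts under alternatives chosen after seeing the data, 1 moved: pathway partners with both EGLN2 siRNAs in 293T cells, 5 at an adjusted p under 0.01 against 9. EGLN3, at 4.30 to 21.9 CPM, rests on the fewest counts.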
